A study of Homo sapiens with 4 samples.

Results

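Lineage-restricted miRNAs are short regulatory RNAs that one tissue or cell type makes in large amounts and most others do not. The set examined here held 36 of the 851 human miRNAs on the array, chosen by name: 7 of muscle, 9 of neural tissue, 8 of blood cells, 1 of liver, 3 of endocrine cells or pancreas and 8 of pluripotent stem cells. All were measured in cells of HCT116, an epithelial line from a human colon cancer. The MG cells (high migratory cells) and the non-MG cells (low migratory cells) were subpopulations of this 1 line, parted by repeated rounds of transwell selection in which MG cells were collected from the lower side of the membrane and non-MG cells from the upper side, and then cultured in the same serum-containing medium with no further treatment. Total RNA of each subpopulation was measured on 2 arrays. Nothing in the labels says that the 2 samples of a group came from separate cultures, so p-values measure only the spread between these arrays.

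A mature miRNA guides a silencing complex to messenger RNAs, which it recognises mainly through its seed, the bases near its 5′ end. miRNAs of one seed can therefore bind many of the same messages, and such families are often transcribed from a common cluster. In muscle, neurons, blood, liver, pancreas and pluripotent cells, a few of these miRNAs make up much of the small RNA pool, whereas the colon epithelium is marked by other families such as miR-200, miR-192 and miR-194.

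The mature sequences of 33 of the 36 miRNAs were matched in RefSeq (assembly GRCh38.p14). Those of miR-124, miR-150 and miR-486-5p were not. Sequences are written 5′ to 3′, and capitals mark the seed, bases 2 to 8. The first 3 belong to the lineage miRNAs that gave any signal past the detection limit and to the partner arm of one of them.
miR-128: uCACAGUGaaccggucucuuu
miR-9: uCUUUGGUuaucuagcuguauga
miR-9*: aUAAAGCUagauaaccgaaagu

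The next belong to families in which several members share 1 seed, shown because closely related members were read by separate probes.
miR-1: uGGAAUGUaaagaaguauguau
miR-206: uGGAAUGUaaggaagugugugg
miR-133a: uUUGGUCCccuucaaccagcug
miR-133b: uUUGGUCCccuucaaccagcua
miR-302a: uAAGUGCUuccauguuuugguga
miR-302b: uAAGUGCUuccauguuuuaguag
miR-302c: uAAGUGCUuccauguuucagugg
miR-302d: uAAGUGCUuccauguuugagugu
miR-372: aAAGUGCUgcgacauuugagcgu
miR-373: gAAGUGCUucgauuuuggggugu

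The last 3 show miR-367 of stem cells beside miRNAs outside the set that carry its seed and were detected in these cells.
miR-367: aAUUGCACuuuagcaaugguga
miR-25: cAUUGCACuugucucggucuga
miR-92a: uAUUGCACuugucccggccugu

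The 33 matched miRNAs carried 25 different seeds. Of these, 4 were shared between members and covered 12 of them: GGAAUGU in miR-1 and miR-206, UUGGUCC in miR-133a and miR-133b, UAAGACG in miR-208a and miR-208b, and AAGUGCU in miR-302a to miR-302d, miR-372 and miR-373. Counted from 1 at the 5′ end, miR-133a and miR-133b differed at 1 base (G22A) and were alike at 21 of 22 positions. miR-1 and miR-206 were alike at 18 of 22. The 4 miR-302 sequences were alike at 20 or 21 of 23 positions in every pair, so that signal on one of these probes could in part come from another family member.

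The deposited files gave each array 15739 spots, of which 15024 read 939 miRNAs, and 117 to 133 human miRNAs were detected per array. Here a miRNA was called detected when at least 1 of its probes had a signal above 3 times its error, as the scanner software calls it. Signals are background-subtracted intensities and have no unit. The arrays shared 1 slide and 1 scan. In the scanner barcode, the number after the slide code was 1 for the non-MG arrays and 2 for the MG arrays. Read as the slide row, which no label states, it cannot be told apart from group. Precision is limited by the number of arrays. As a check of the label, 5 of 7 epithelial markers were detected on all 4 arrays (miR-200a, miR-200b, miR-200c, miR-141 and miR-429), with signals of 322 to 407 for miR-200c. miR-203 passed the limit on MG 1 alone and miR-205 on no array. The intestinal markers miR-192, miR-194 and miR-215 were detected on no array, which goes against what the colon epithelium is known for. Of 5 mesenchymal markers, miR-145 was detected on 3 arrays at 4.42 to 8.76 and the other 4 on none, and miR-126 of endothelial cells was detected on all 4 arrays at 6.27 to 10.4.

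Few of the lineage-restricted miRNAs were detected. On at least 1 array, 2 of 36 passed the limit (5.56%), beside 16.3% of all human miRNAs and 16.8% of the 815 human miRNAs outside the set. On all 4 arrays, 1 of 36 was detected (2.78%), beside 13.5% of all human miRNAs. Both exceptions, miR-128 and miR-9, were neural (2 of 9). That is 22.2% of the neural miRNAs on at least 1 array and 11.1% on all 4, near the shares of all human miRNAs. With so few miRNAs per lineage, these counts do not set 1 lineage apart from the others. No miRNA of muscle (0 of 7), blood (0 of 8), liver (0 of 1), endocrine cells or pancreas (0 of 3) or stem cells (0 of 8) was detected on any array. These shares were set side by side as a description and were not tested.

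**Figure D1:**
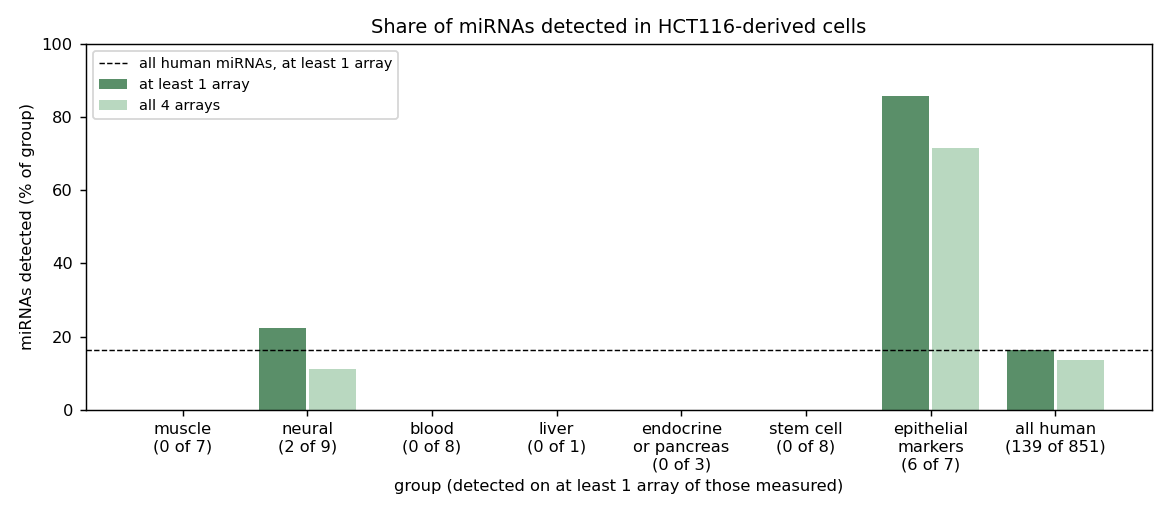
Share of miRNAs detected, in percent of each group, on at least 1 array (dark bars) and on all 4 arrays (light bars), by lineage and beside the epithelial markers and all human miRNAs. Of the 6 lineages, the neural one alone had detected members (2 of 9, 22.2%), with too few miRNAs per lineage to set it apart. On at least 1 array, 6 of 7 epithelial markers and, at the dashed line, 139 of 851 human miRNAs (16.3%) passed the limit. The other markers are not drawn: 0 of 3 intestinal, 1 of 5 mesenchymal and 1 of 1 endothelial markers were detected on at least 1 array.

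The MG and non-MG arrays gave nearly the same list. On at least 1 MG array, 1 of the 36 was detected (miR-128), beside 15.5% of all human miRNAs. On at least 1 non-MG array, 2 of the 36 were detected (miR-128 and miR-9), beside 15.7%. Array by array, the number of lineage miRNAs detected was 1 on non-MG 1, 2 on non-MG 2, 1 on MG 1 and 1 on MG 2. No lineage miRNA was detected in MG cells and not in non-MG cells.

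miR-128 (hsa-miR-128 in the table of values) was the lineage miRNA detected on every array. It is known as a brain-enriched miRNA of neurons and is made at lower levels in many other tissues. RefSeq places its mature sequence at 2 loci of GRCh38.p14, chr2:135665446-135665466 on the plus strand (MIR128-1, within the protein-coding gene R3HDM1) and chr3:35744527-35744547 on the plus strand (MIR128-2, within the protein-coding gene ARPP21). The array reads the mature RNA, so the loci cannot be told apart.

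The unscaled signal of miR-128 was 37.4 on non-MG 1, 44.0 on non-MG 2, 32.1 on MG 1 and 33.0 on MG 2, with scanner errors of 3.38, 4.03, 3.19 and 3.66 in the same order. Both MG arrays lay below both non-MG arrays, which after scaling held for 40% of the 115 human miRNAs detected on all 4 arrays. Among detected human miRNAs these signals ranked 67 of 133, 59 of 122, 74 of 132 and 67 of 117, near the middle of each array. On no array did miR-128 reach 50, the minimum signal used in the study.

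Both probes of miR-128 passed the limit on all 4 arrays. The brighter probe read 27.4, 31.7, 24.9 and 24.5 on non-MG 1, non-MG 2, MG 1 and MG 2, which was 8.01 to 9.04 times its error. The dimmer probe read 10.1, 12.3, 7.16 and 8.49, or 4.23 to 6.65 times its error. On either probe both MG arrays were below both non-MG arrays. The probes read the same RNA on the same arrays, and the share of all probes with this order was not counted. Of the 16 spots of miR-128, 15, 13, 13 and 12 were well above background on the same arrays.

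**Figure D2:**
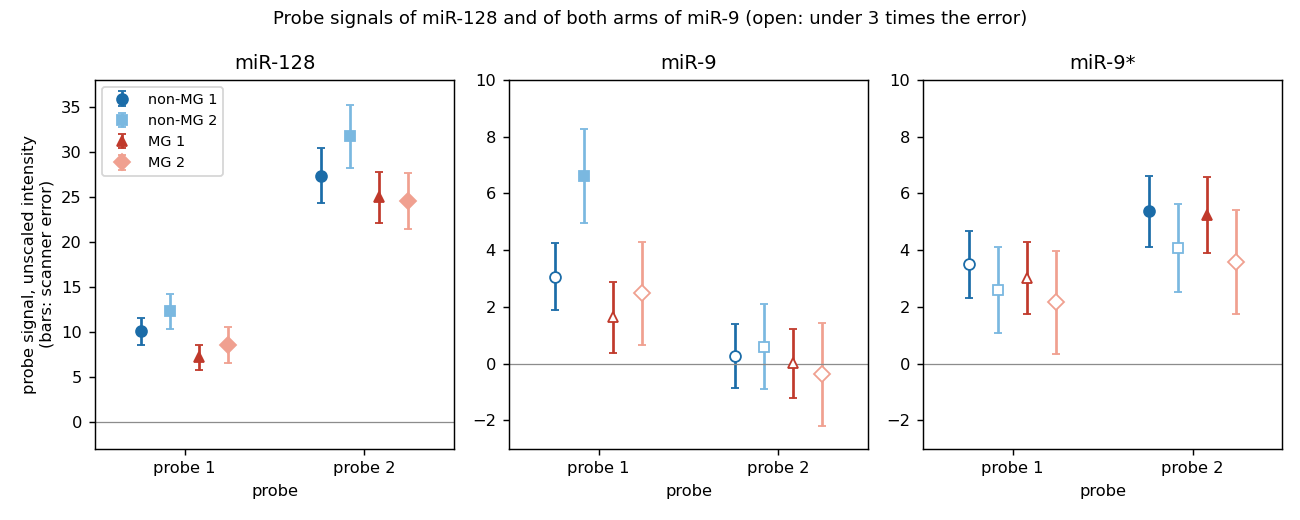
Unscaled signal of each probe of miR-128, miR-9 and miR-9* on the 4 arrays, with the scanner error of the probe as bars, open symbols under 3 times the error, and a longer vertical axis for miR-128. Both probes of miR-128 were detected on every array, 1 probe of miR-9 only on non-MG 2 (6.60), and 1 probe of miR-9* on non-MG 1 (5.36) and MG 1 (5.24).

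For the comparison of MG with non-MG cells, a common scale was set with the 75th percentile of the miRNAs that all 4 arrays detected. On this scale miR-128 was at 35.5 on non-MG 1, 46.4 on non-MG 2, 31.6 on MG 1 and 33.6 on MG 2. Its mean was 41.0 ± 7.76 (SD, n = 2) in non-MG cells and 32.6 ± 1.45 (SD, n = 2) in MG cells. The groups did not overlap, but this held for 55.7% of the 115 human miRNAs tested, and 40% did not overlap and were lower in MG cells.

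The fold change of miR-128, MG over non-MG, was 0.803 (95% interval 0.60 to 1.08; log2 −0.32, SE 0.21), with an adjusted p of 0.329 in limma. The difference was therefore not called, and the interval left room for a fall, for no change and for a rise. limma pools the spread over the miRNAs tested, here with 131 prior degrees of freedom. The width of the interval thus rests mostly on other miRNAs and not on the 4 values of miR-128. In the same fit 20.9% of the 115 human miRNAs were called at an adjusted p under 0.05, and 13.9% of the 115 were called as lower in MG cells. By its p miR-128 ranked 49 of 115. As the 1 lineage miRNA detected on all 4 arrays, miR-128 was the only one that could be tested, so that 0 of the set were called by limma, and 0 had an unadjusted p under 0.05. The median log2 change over the 115 miRNAs was −0.11, beside the −0.32 of miR-128.

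**Figure D3:**
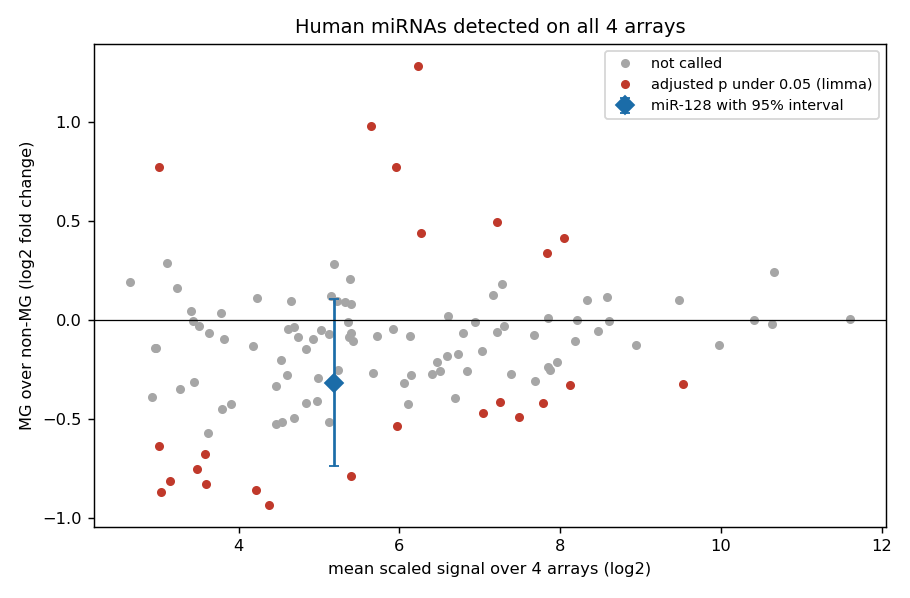
Log2 fold change, MG over non-MG, against mean log2 scaled signal for the 115 human miRNAs detected on all 4 arrays, with the 24 miRNAs past an adjusted p of 0.05 (limma) in red. miR-128 (diamond, with its 95% interval) lay at −0.32, among the uncalled miRNAs, and its interval crossed 0.

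miR-9 (hsa-miR-9) was the other exception, and it stood near the limit. It is known as a miRNA of neural progenitors and is one of the most abundant in developing brain. RefSeq lists its mature sequence at 3 loci of GRCh38.p14, chr1:156420392-156420414 on the minus strand (MIR9-1), chr5:88666902-88666924 on the minus strand (MIR9-2) and chr15:89368032-89368054 on the plus strand (MIR9-3), each within its own long non-coding host gene.

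miR-9 was detected on non-MG 2 only, with a signal of 6.60 ± 1.65 (scanner error), rank 115 of 122 detected human miRNAs. That signal came from 1 of its 2 probes. On non-MG 1, non-MG 2, MG 1 and MG 2 the probe read 3.05, 6.60, 1.63 and 2.48, or 2.59, 4.0, 1.31 and 1.36 times its error. Only non-MG 2 passed the limit, so the order of the readings was not taken as a difference between the groups. The other probe of miR-9 read 0.277, 0.595, 0.00515 and −0.377, under its error on every array.

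On non-MG 2, 3 of the 16 spots of miR-9 were well above background. The 8 spots of its brighter probe ran from 3.12 to 104.8, where the highest was marked as an outlier by the scanner software and the next was 18.0. Their median was 13.2, above the mean of the negative control spots on that array (7.46 ± 3.67, SD over 434 spots). On the other arrays the median of the same spots was 5.87, 2.56 and 5.20 (non-MG 1, MG 1, MG 2), below the mean of the negative controls. With 1 of 4 arrays past the limit, no fold change or test is given for miR-9.

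Other arms, paralogs and cluster mates of the lineage miRNAs were read as well. Of 30 such companions on the array, 1 was detected (3.33%), namely miR-9*, the partner arm cut from the same precursor as miR-9. Its signal was 5.36 ± 1.24 (scanner error) on non-MG 1 and 5.24 ± 1.34 on MG 1. Of the 8 spots of the probe that passed, 4 were well above background on non-MG 1 and 0 on MG 1. The medians of these spots were 10.5 and 9.65, beside negative controls of 7.14 ± 3.22 and 6.68 ± 3.14 (SD). On non-MG 2 and MG 2 the brighter probe of miR-9* read 4.07 and 3.58, under the limit. Each group thus had 1 array on which miR-9* was detected, and the array that detected miR-9 was not among them. The other 29 companions gave at most 1.01 times the error of a probe (miR-132*). Among them were miR-451, the erythroid cluster mate of miR-144, miR-212, the cluster mate of miR-132, and miR-216b, from the cluster of miR-216a and miR-217.

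The 34 undetected lineage miRNAs lay at background on both groups of arrays. Their 80 probes read −4.34 to 2.94 with a median of −1.31, and 82.8% of the readings were below 0. For the 678 other undetected human miRNAs the share below 0 was 87.0%. Of the spots of the 34 miRNAs, 2 of 2176 were well above background (0.0919%), beside 92 of 43392 (0.212%) for the others. Both spots were on non-MG 2, 1 of miR-302b and 1 of miR-367. No probe of the 34 had a spot median above the mean of the negative controls on its array. These controls averaged 6.11 to 7.46 by array, above the median spot of all miRNAs (−2.55 to −2.39). A reading under them therefore does not set a probe apart from a typical miRNA spot. The limit of a single probe, 3 times its error, had a median over these probes of 3.36 on non-MG 1, 4.48 on non-MG 2, 3.68 on MG 1 and 5.41 on MG 2, so that lower levels were not detectable here and the limit was highest on MG 2.

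**Figure D4:**
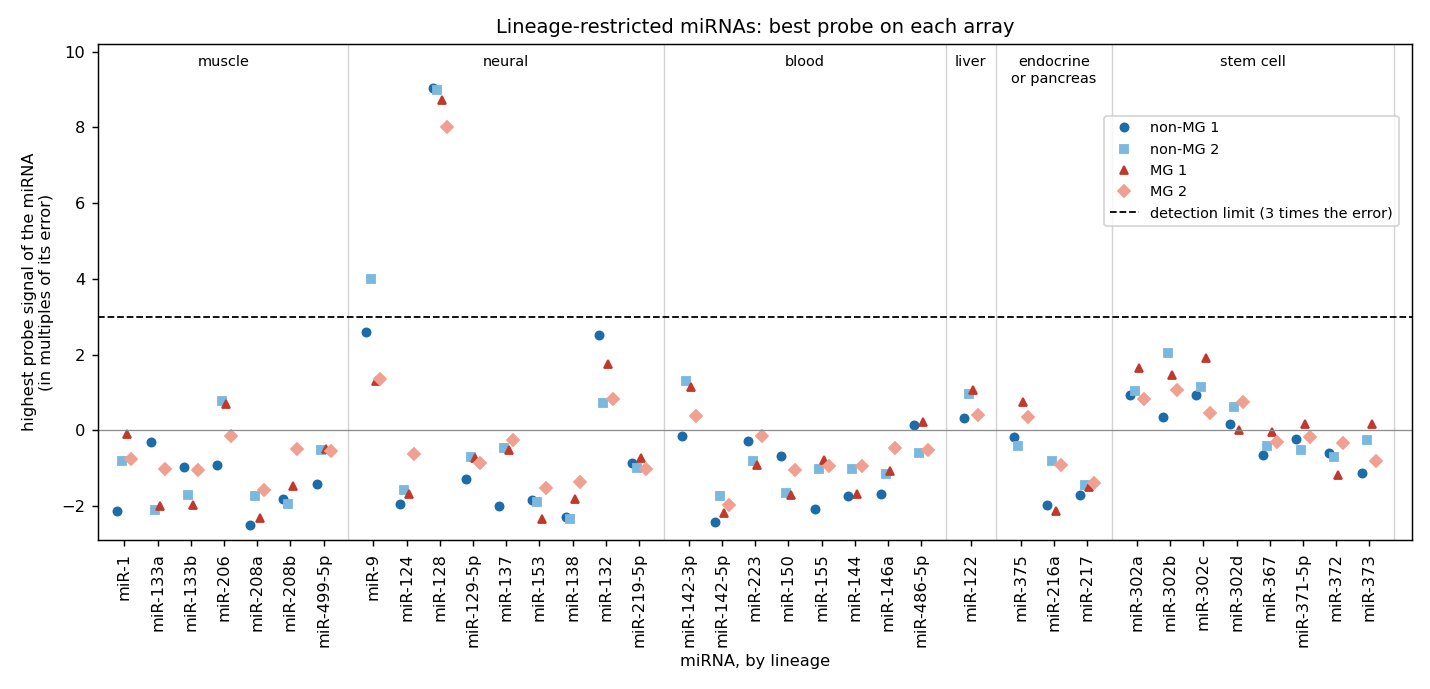
Signal of the best probe of each of the 36 lineage miRNAs, in multiples of its error, on the 4 arrays, ordered by lineage, with the detection limit of 3 as a dashed line. miR-128 lay at 8.01 to 9.04 on all arrays, miR-9 passed the limit on non-MG 2 (4.0), and the highest of the others was miR-132 on non-MG 1 (2.53).

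In muscle, miR-1 and miR-133a drive and tune the differentiation of skeletal and heart muscle, miR-206 is restricted to skeletal muscle, and miR-208a, miR-208b and miR-499-5p lie in introns of myosin heavy chain genes. Probe signals of these 7 ran from −4.25 to 1.17 with a median of −2.04. For 6 of the 7 every probe was below 0 on every array. The exception was miR-206, whose better probe read −1.03 and 1.17 in non-MG cells and 0.850 and −0.293 in MG cells. The groups overlapped and no value exceeded its error. miR-1, with the same seed as miR-206, read −2.98 to −0.127 over its probes and arrays.

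Of the neural miRNAs, 7 were not detected, and 6 of these were below 0 on every probe and array. They included miR-124, the most abundant miRNA of mature neurons, at −2.64 to −0.701, and miR-219-5p, a miRNA of oligodendrocytes, at −2.13 to −0.885. The exception was miR-132 (hsa-miR-132), which is induced by neuronal activity and also made elsewhere. Its better probe read 2.94 and 1.07 in non-MG cells and 2.18 and 1.51 in MG cells. The MG values lay between the non-MG values, and the highest, on non-MG 1, was 2.53 times its error and the closest to the limit of all 34. None of the spots of miR-132 was well above background.

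Among the blood miRNAs, 6 of 8 were below 0 on every probe and array, among them miR-223 of myeloid cells (−2.10 to −0.263), miR-150 of lymphocytes (−2.28 to −0.484) and miR-155 of activated immune cells (−2.64 to −0.979). The reading nearest to the limit was one of miR-142-3p, which marks cells of the whole haematopoietic lineage. Its probes read −0.178 to 1.98, and that reading, on non-MG 2, was 1.31 times its error. miR-142-5p, from the other arm of the same hairpin, was below 0 throughout, at −4.34 to −2.60. miR-486-5p, abundant in red blood cells, read −2.56 to 0.267.

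miR-122, the main miRNA of hepatocytes, gave readings of −1.31 to 1.45, at most 1.06 times the error (MG 1). miR-375, which is abundant in pancreatic islets and other endocrine cells, read −2.70 to 0.934. The better of its probes was −0.204 and −0.617 in non-MG cells and 0.934 and 0.657 in MG cells. Here the MG readings were the higher ones on both arrays, but none of the values exceeded its error. miR-216a and miR-217 of the exocrine pancreas were below 0 on every probe and array, at −2.32 to −0.611 and −2.09 to −0.914.

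Of the stem cell miRNAs, 2 of 8 were below 0 on every probe and array, and 3 of 8 had a reading above its error, namely miR-302a, miR-302b and miR-302c. The cluster of miR-302 and miR-367 is transcribed as 1 unit in pluripotent cells, and miR-371-5p, miR-372 and miR-373 form the other stem cell cluster. The brightest probe of miR-302a (hsa-miR-302a) read 1.06 and 1.56 in non-MG cells and 2.04 and 1.47 in MG cells. That of miR-302b read 0.0545 and 1.55 in non-MG cells and 0.910 and 0.975 in MG cells. That of miR-302c read 0.656 and 1.09 in non-MG cells and 1.52 and 0.311 in MG cells. In these 3 miRNAs the MG and non-MG values overlapped, and their highest readings were 1.63 (MG 1), 2.03 (non-MG 2) and 1.92 (MG 1) times the error. miR-302d reached 0.759 times its error, and miR-367 was below 0 on every probe and array. miR-372 and miR-373, with the seed of miR-302, read −2.68 to −0.610 and −1.82 to 0.193.

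Seeds of the lineage miRNAs were also looked for in the rest of the array, where RefSeq sequences were matched for 744 of the 851 human miRNAs. Outside the set, 12 miRNAs carried the seed of a member. Of these, 2 were detected, a share close to that of all human miRNAs on at least 1 array (16.3%). Both shared AUUGCAC with miR-367, namely miR-25 and miR-92a. They belong to growth-associated clusters active in many cell types, such as miR-106b-25 and miR-17-92, and the array does not show from which locus a mature miRNA came. The unscaled signal of miR-25 was 257 and 245 in non-MG cells and 217 and 208 in MG cells, and that of miR-92a was 202 and 224 in non-MG cells and 149 and 153 in MG cells. In both miRNAs the MG arrays lay below the non-MG arrays, as on the common scale for 40% of the 115 human miRNAs tested. The fold change, MG over non-MG, was 0.849 for miR-25 (adjusted p = 0.184, limma) and 0.713 for miR-92a (95% interval 0.595 to 0.853, adjusted p = 0.00490, limma). The call of miR-92a depended on the setting: its fold was below 1 in each of 16 alternatives (0.610 to 0.808), but it was called in 7 and not in the other 9, among them each of the 4 fits without 1 array (adjusted p = 0.117 without non-MG 1, 0.163 without non-MG 2, 0.142 without MG 1 and 0.128 without MG 2, limma). Beyond the seed the sequences shared little with miR-367, which was alike to each at 12 of 22 positions, and the probes of miR-367 stayed below 0 on the same arrays.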

How the data were processed

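RNA of HCT116-derived MG and non-MG cells was hybridised to 1-colour Agilent human miRNA arrays, 2 per group. The authors deposited the scanner output (Feature Extraction 10.7.1.1), with background-subtracted intensity values per spot and probe and other columns that hold detection flags, and a table of 1 intensity per miRNA and array, at 0.1 where a miRNA was not detected, with no normalization between arrays. The scanner files name genome build GRCh37. RefSeq positions given here are on GRCh38.p14.

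Probes above 3 times their error were summed to the signal of a miRNA. This equalled the authors' table within 0.05% for 328 of 328 values checked. The scanner flag for a detected miRNA and this probe limit differed in 0 cases. Between arrays, the 75th percentile over the 116 miRNAs that all 4 arrays detected was made equal (142 to 158 before scaling), values under 1 were set to 1, and log2 was taken. For the 115 human ones, groups were compared in limma 3.58.1 (lmFit, then eBayes with trend, two-sided, Benjamini-Hochberg adjustment, threshold 0.05) in R 4.3.3. Tables were made in Python 3.11.15 with pandas 2.3.3. The limma fit was also run on simulated data whose spread followed the mean signal, as the trend fit assumes. That run cannot vouch for the calls in the real data. Control spots were left out.

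Every lineage miRNA detected on at least 1 array was named, and of the companions (other arms, paralogs and cluster mates) those detected. The undetected lineage miRNAs were counted by lineage and only in part named. Companions outside this rule, and the values of undetected miRNAs, were chosen for the text after their values were seen. The members and lists were chosen with earlier results of these data known. Samples were not treated as paired by replicate number in the main fit. Deviations of same-numbered arrays from their group means correlated at 0.26. With 2 pairs this cannot show whether the samples were paired. A permutation test of 2 against 2 arrays could not go below p = 0.333 and was not used. Alternatives covered the detection call, signal minimum, filter, scaling, background, floor, trend, replicate block and each array left out in turn.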

Additional observations from a re-analysis of the deposited data

How the results depend on the processing

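The number of lineage miRNAs detected was 2, and also 2 by the authors' table, which holds the same calls and is no separate check. It was 1 when detection was required on both arrays of a group, on all 4 arrays, in at least 50% of the spots or in all spots of a probe, and 1 with a minimum signal of 20. With a minimum of 50 it was 0. Leaving out each array in turn gave 1 to 2, with 1 without non-MG 2, the array on which miR-9 was detected. In none of the 15 alternatives with a value was miR-128 called: its fold stayed below 1, at 0.687 (total signal of the scanner files, adjusted p = 0.0977) to 0.945 (normexp, adjusted p = 0.639) and 0.702 to 0.908 with 1 array left out, where the lone array of a group was taken to vary like the others (limma). Adjusted p over these alternatives ran from 0.0977 to 0.786. The unadjusted p was under 0.05 with the total signal and without non-MG 1. With the replicate block the fold was 0.803 and the adjusted p 0.381 (limma), and no call of a lineage miRNA changed. With the minimum of 50, miR-128 was not tested.

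The 24 calls over all miRNAs depended on the setting (limma). They numbered 15 of 57 with the minimum of 50, 18 of 91 with that of 20, 2 of 139 when detected on at least 1 array, 11 without trend, 12 with quantile normalization (6 higher and 6 lower in MG), 1 with the total signal, 9 with normexp (77.8% higher in MG, against 33.3% of the 24), 2 with a floor of 10 and 0 to 14 with 1 array left out. Levels under the limit of a probe, whose median was 3.36 to 5.41 by array, were not detectable.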
